A study of Mus musculus with 8 samples.

Results

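The DEAD and DEAH box helicase genes are described here as 49 gene names of the array that begin with Ddx or Dhx and a digit, with 1 such gene left out by the rule. They are 49 of 27962 gene names on the array, 34 DEAD members (Ddx) and 15 DEAH members (Dhx), and were chosen by name, not by signal. All 49 passed the background filter, as did 17593 gene names in all, and 48 of them had a probe above background on every array. The exception was Ddx58, the RNA sensor RIG-I, whose brightest kept probe, from which it is read, was above background on the input arrays only and whose other kept probe on 3 of 8 arrays. RefSeq now calls Ddx39 Ddx39a and Ddx48 Eif4a3, and the names of the array are kept below.

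DEAD and DEAH box proteins are enzymes that use ATP to unwind or remodel RNA and RNA-protein complexes, and are named after the letters of one of their conserved motifs. DEAD box enzymes open short duplexes locally and serve in ribosome assembly, splicing, export, translation and decay, while many DEAH box enzymes drive rearrangements of the spliceosome. Male germ cells depend on members of the family such as Ddx25, also called GRTH, since they store mRNAs for translation at later stages.

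The RNA came from testes of male mice at postnatal day 14, of a mixed C57BL/6 and 129SV background, in which juvenile germ cells expressed the RNA-binding protein Dazl as a fusion with GFP and V5. Every group carried this fusion, and the labels do not give the promoter behind it or say that replicates were separate animals, so each p reflects only how far these samples spread, and that spread may be technical. The 8 one-colour arrays form 4 groups of 2: input total RNA with no antibody, and RNA precipitated without crosslinking by normal mouse IgG as a mock, by anti-V5 or by anti-GFP. The study asked which RNAs travel with tagged Dazl above the mock. The series text names PABP1 where the sample labels name GFP, and values for GFP rest on the sample labels. For input replicate 2 the description says RNA-IP, and for V5 replicate 1 it says total RNA, against their titles, so counts of calls are also given without these arrays.

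Between 57.2% and 62.2% of 43379 spots lay above background, 0 were saturated, and the 75th percentile of the signal ranged from 857.0 to 1114.9. Signals below are processed signals scaled so that this percentile is 998 on each array, and a signal is compared only with the same probe on other arrays. Arrays of a group differed for the members by a median of 0.107 (absolute log2) with IgG and 0.0529 to 0.0654 elsewhere, and the pooled SE may therefore be too small for comparisons with IgG. Input and IgG shared one slide, V5 and GFP another, so for differences between these pairs slide and group cannot be told apart. Input RNA held other cells besides germ cells, since all 10 Sertoli, 5 measured Leydig, 5 myoid, 7 measured leukocyte and 5 endothelial markers were above background on both input arrays. In such bulk RNA fewer cells of a type and less RNA per cell cannot be told apart.

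Against the IgG mock, 7 members were higher and 18 lower with V5, and 13 higher and 26 lower with GFP (limma, adjusted p under 0.05). For V5 these are 14.3% and 36.7% of members, beside percentages of 16.7 and 40.3 (57.0 either way) over all genes tested. For GFP they are 26.5% and 53.1%, beside 21.6 and 52.1 (73.7 either way) over all genes. The members' median log2 fold change was -0.13 with V5 and -0.25 with GFP, beside -0.21 and -0.32 over all genes. The shares and medians of the family thus lay near those of the transcriptome in both comparisons.

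Against input the family lay below the transcriptome. With IgG 15 members were higher and 26 lower than in input, that is 30.6% and 53.1% beside 43.9 and 29.3 (73.2 either way) over all genes, and their median was -0.37 where that of all genes was 0.22. V5 gave 9 higher and 27 lower (18.4% and 55.1%, beside 37.7 and 35.5, or 73.2 either way), at a median of -0.41 against 0.01. GFP gave 11 higher and 31 lower (22.4% and 63.3%, beside 36.2 and 39.1, or 75.2 either way), at a median of -0.56 against -0.06. The 3 comparisons share the input arrays, so they are not separate evidence.

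**Figure D1:**
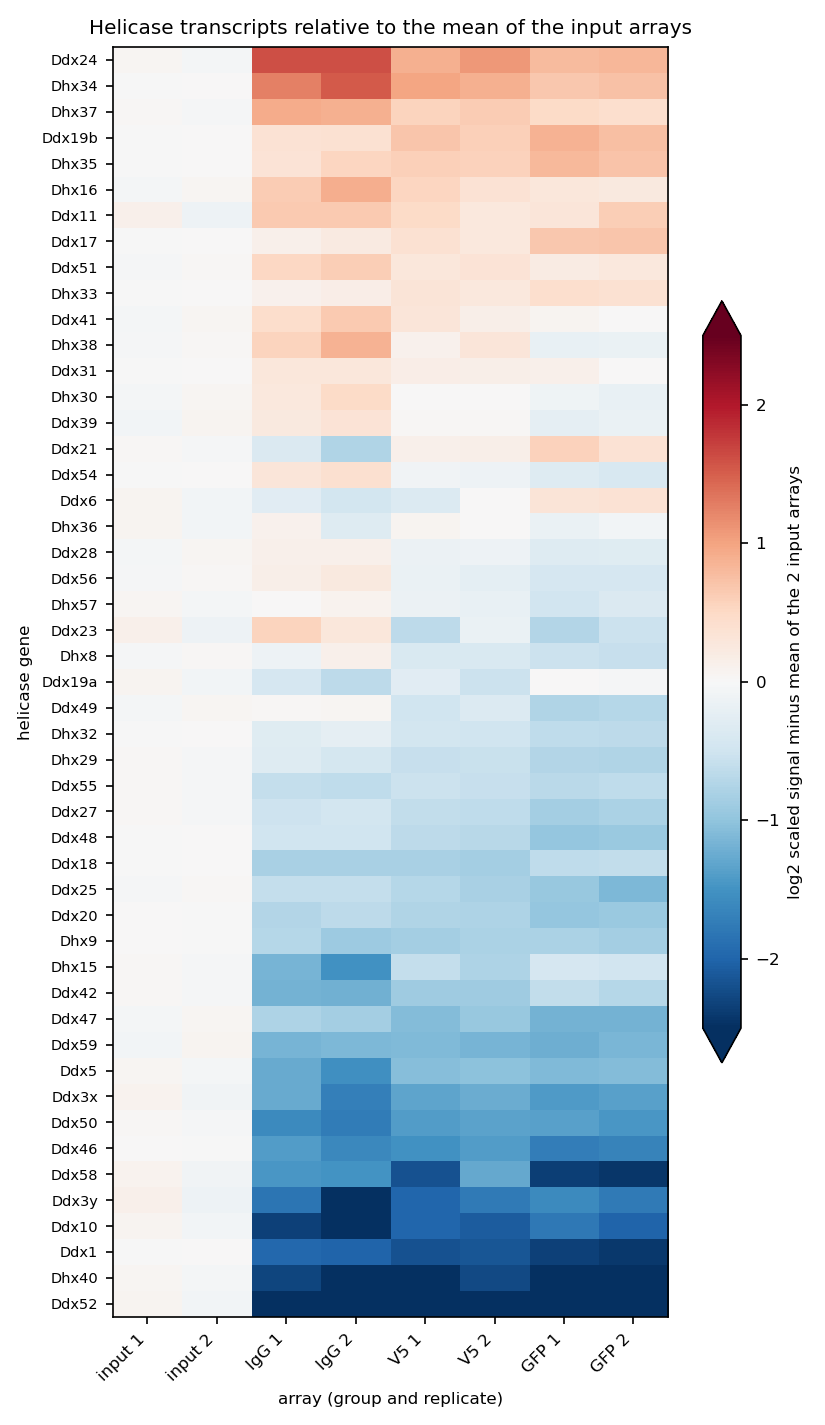
Log2 scaled signal of each of 49 helicase genes (rows, ordered by the mean of the precipitates) on each of 8 arrays (columns), minus the mean of the 2 input arrays; red is above and blue below input. Ddx24 and Dhx34 at the top are red on every precipitate array, and Ddx52, Dhx40 and Ddx1 at the bottom are blue on every one.

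Both kinds of count move with the scaling of the arrays. With arrays scaled to spike-in RNA the median of all genes went from -0.21 to 0.16 for V5 against IgG, from -0.32 to 0.15 for GFP against IgG and from 0.22 to -0.57 for IgG against input. The members higher and lower were then 21 and 0, 21 and 5, and 2 and 41, at medians of 0.23, 0.22 and -1.16. Of all genes called 87.2%, 75.6% and 18.1% were higher. Such percentages, here and below, are shares of the calls and not of all genes tested. They do not tell whether more members were called than among all genes. With spike-in scaling V5 against input gave 3 and 36, and GFP against input 5 and 37, where 26.8% and 31.1% of all calls were higher. Scaled to the median spot, the counts were 14 and 1 for V5 and 17 and 9 for GFP against IgG, and 17 and 22 and 14 and 23 for V5 and GFP against input, where 75.5%, 52.6%, 68.9% and 65.9% of all calls were higher. Quantile normalization gave 10 and 15 for V5 against IgG, with 39.2% of all calls higher. Spike-in scaling turned the sign of 22 of 49 members for V5 and 21 for GFP against IgG, among them 10 of 25 and 13 of 39 called ones. The small gap between the members' median and that of all genes against IgG had no fixed sign. With normexp background correction it was -0.12 beside -0.09 for V5 and -0.18 beside -0.17 for GFP, and for GFP -0.25 beside -0.23 with no filter on dim probes and -0.34 beside -0.32 without GFP replicate 2.

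The number of V5 calls against IgG, 25, depends on the arrays and the background correction while the members' median moved only from -0.12 to -0.17 under these choices. Without the 2 arrays of conflicting descriptions 0 calls were made, 14 members had an unadjusted p under 0.05, 1240 of all genes were called and the members' median was -0.14. Without these arrays the calls numbered 33 of 39 for GFP against IgG, and 37 of 41, 29 of 36 and 34 of 42 for IgG, V5 and GFP against input. For V5 against IgG they numbered 7 without V5 replicate 1, 11 without V5 replicate 2 and 16 without IgG replicate 2, but 20 to 27 without any other array. They also numbered 22 with a replicate block, 21 with the mean over probes, 27 with probes above background on all arrays or local background, and 29 with a trended robust prior. With normexp background correction 0 calls were made for V5, where 8 members had an unadjusted p under 0.05, and 4 were made for GFP.

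Ddx25 is the germline helicase of the set, an enzyme of export and translation in male germ cells that Leydig cells also make. Its signal was 18747 and 19392 in input, 12611 and 12565 with IgG, 11607 and 10804 with V5, and 9854 and 8794 with GFP. No group overlapped another, with input highest and GFP lowest. The transcript was lower than input with IgG (-0.60 ± 0.080, 1.51-fold, adjusted p = 0.000548), with V5 (-0.77 ± 0.080, 1.70-fold) and with GFP (-1.03 ± 0.080, 2.05-fold).

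Against IgG it was lower with GFP (-0.44 ± 0.080, adjusted p = 0.00296), a sign that spike-in scaling turned (0.04), and did not pass with V5 (-0.17 ± 0.080, adjusted p = 0.114; 0.20 with spike-in scaling). A further probe of Ddx25 gave -0.02 with V5 and -0.24 with GFP against IgG, and -1.22 with IgG against input. Neither probe therefore placed Ddx25 above the mock at the 75th percentile scaling. Over the same arrays the measured spermatid markers, 4 of 5 listed, summed to 462 and 485 in input, 442 and 489 with IgG, 306 and 307 with V5 and 198 and 227 with GFP. Measured Leydig markers summed to 24663 and 25278, 26398 and 28505, 19681 and 20503, and 16907 and 19761 in the same order. Their part in the values of Ddx25 was not tested.

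Other helicases of germ cells outside the naming rule behaved unlike one another. D1Pas1, the autosomal copy of Ddx3x made in testis, was higher than IgG with V5 (0.66 ± 0.13, adjusted p = 0.00715) and GFP (0.94 ± 0.13, adjusted p = 0.000865). Tdrd9, a DEAH-type helicase of the piRNA pathway, gave -0.08 ± 0.087 with V5 (adjusted p = 0.428) and was lower with GFP (-0.23 ± 0.087, adjusted p = 0.0494; 0.24 with spike-in scaling). Mov10l1, the helicase of piRNA precursors, was lower with both (-0.36 ± 0.091 and -0.60 ± 0.091; 0.00 and -0.12 with spike-in scaling). How these differ from Ddx25 was not tested.

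**Figure D2:**
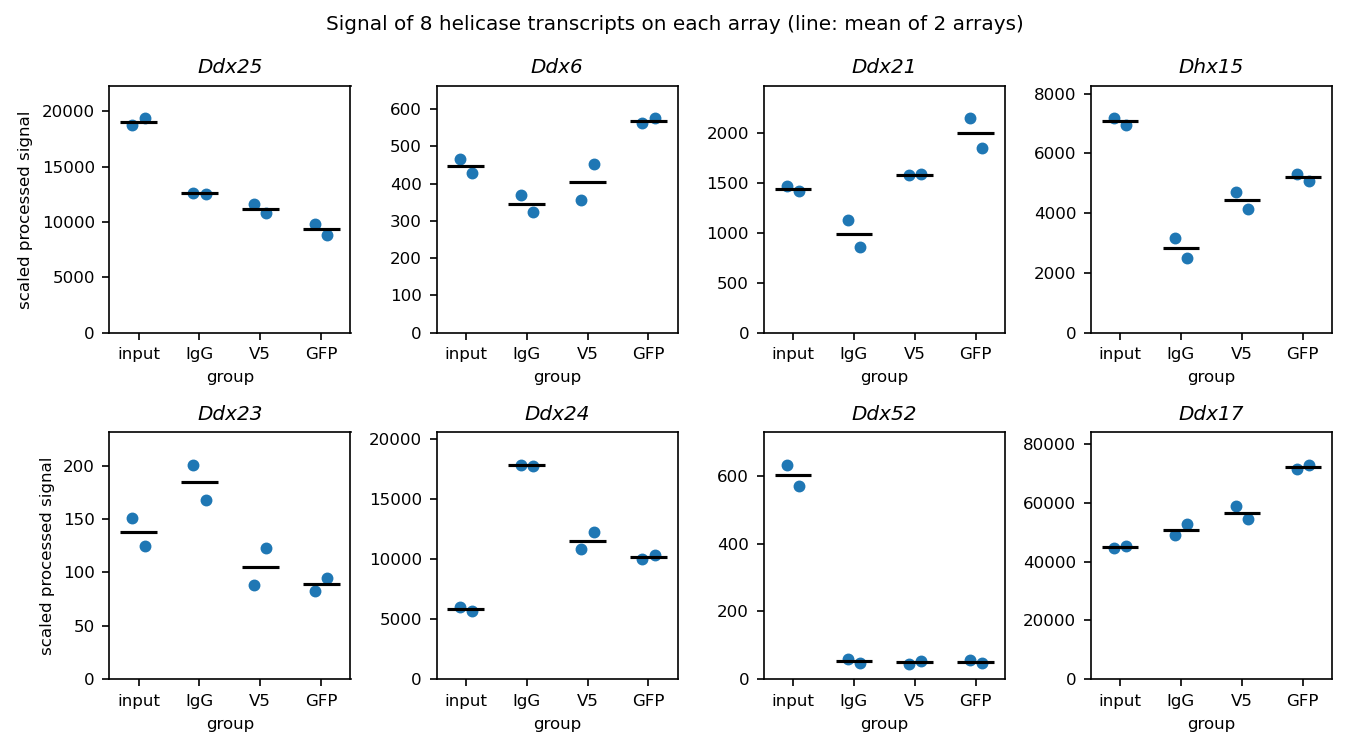
Scaled processed signal (vertical axes, from 0) of 8 helicase transcripts on the 2 arrays of each group (points; lines are means). Ddx21, Dhx15 and Ddx6 are higher with GFP than with IgG, Ddx23 and Ddx24 lower, and Ddx52 lies at 44.9 to 59.0 on all 6 precipitate arrays against 570 and 634 in input.

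Of 9 members of export, translation and decay, 1 was higher and 2 lower with V5 than with IgG, and 3 each way with GFP (medians 0.15 and 0.10). These are 11.1% and 22.2% with V5, beside 16.7 and 40.3 over all genes, and 33.3% each way with GFP, beside 21.6 and 52.1. Ddx6, the helicase of processing bodies that represses translation and promotes decapping, read 467 and 428 in input, 369 and 324 with IgG, 355 and 452 with V5 and 562 and 576 with GFP. GFP lay above all other arrays, and V5 overlapped IgG and input. Against IgG it was higher with GFP (0.72 ± 0.13, 1.65-fold, adjusted p = 0.00273) and did not pass with V5 (0.21 ± 0.13, adjusted p = 0.199). V5 against GFP itself missed the threshold (-0.51 ± 0.13, adjusted p = 0.0505), and passed at the same value without either IgG array.

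Against input Ddx6 was lower with IgG (-0.37 ± 0.13, adjusted p = 0.0379) and higher with GFP (0.35 ± 0.13, adjusted p = 0.0471), and gave -0.16 ± 0.13 with V5. The IgG call ended without IgG replicate 2 (-0.28) or either input or GFP array (-0.31 to -0.43), and the GFP call without any array of input, IgG or GFP (0.29 to 0.41). These calls therefore sit at the threshold.

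Ddx19a and Ddx19b, the near-identical helicases of mRNA export at the nuclear pore, were the other members of the group above IgG. Ddx19b read 12426 and 12467 in input, 16025 and 16301 with IgG, 20187 and 18902 with V5 and 22669 and 21019 with GFP. The groups stood in that order without overlap. Ddx19b was higher than IgG with V5 (0.27 ± 0.071, adjusted p = 0.0180; not past the threshold without V5 replicate 1, at 0.23) and with GFP (0.43 ± 0.071), and higher than input with V5 (0.65 ± 0.071) and GFP (0.81 ± 0.071, 1.75-fold). Ddx19a was higher than IgG with GFP (0.53 ± 0.12, 1.44-fold, adjusted p = 0.00671). Near-identical copies can share signal between their probes.

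The export factor Ddx39 and the exon junction helicase Ddx48 lay lower. Ddx39 read 24973 and 27362 in input, 31141 and 32918 with IgG, 26765 and 26518 with V5 and 22508 and 23197 with GFP. IgG lay above the other groups. Against IgG Ddx39 was lower with V5 (-0.27 ± 0.073) and GFP (-0.49 ± 0.073), the former turning to 0.10 with spike-in scaling and losing its call without either V5 array (-0.27 and -0.26) or IgG replicate 2 (-0.23). Ddx48 was lower than IgG with V5 (-0.18 ± 0.060, adjusted p = 0.0389) and GFP (-0.45 ± 0.060, adjusted p = 0.000886; 0.18 and 0.03 with spike-in scaling), and lower than input with V5 (-0.68 ± 0.060) and GFP (-0.94 ± 0.060). The V5 call of Ddx48 against IgG was lost without any 1 of the 8 arrays (-0.16 to -0.20) and was kept in 3 of 20 alternatives.

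Ddx3x and Ddx3y, the X and Y copies of a helicase of translation initiation, were much lower in every precipitate than in input. Ddx3y read 384 and 323 in input, 98.8 and 61.0 with IgG, 89.6 and 104 with V5 and 116 and 103 with GFP. The precipitates lay below both input arrays, and the IgG arrays spread widely. Against input the log2 fold changes of Ddx3y were -2.18 ± 0.23 with IgG (4.53-fold, adjusted p = 0.000170), -1.87 ± 0.23 with V5 and -1.69 ± 0.23 with GFP. Those of Ddx3x were -1.48 ± 0.15, -1.29 ± 0.15 and -1.39 ± 0.15.

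Neither passed against IgG, Ddx3x at 0.20 ± 0.15 with V5 and 0.10 ± 0.15 with GFP, and Ddx3y at 0.31 ± 0.23 and 0.50 ± 0.23. Without IgG replicate 1 these comparisons passed, at 0.42 and 0.32 for Ddx3x and 0.66 and 0.84 for Ddx3y, and without IgG replicate 2 Ddx3x gave -0.02 and -0.12. The result thus depends on which IgG array is kept. The other members of the list, the scanning factor Dhx29 and the G-quadruplex resolvase Dhx36, gave -0.36 and 0.00 with GFP against IgG, of which the first was called and turned with spike-in scaling (0.11).

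Of 17 members of ribosome biogenesis, 3 were higher and 7 lower than IgG with V5, and 5 higher and 10 lower with GFP. The shares, 17.6% and 41.2% with V5 and 29.4% and 58.8% with GFP, lay near the 16.7 and 40.3, and 21.6 and 52.1, of all genes. Ddx21, a nucleolar helicase of ribosomal RNA synthesis and processing, was the highest of all 49 members in both comparisons. It read 1465 and 1415 in input, 1127 and 855 with IgG, 1580 and 1588 with V5 and 2150 and 1854 with GFP. At this probe IgG lay lowest and GFP highest, without overlap. The log2 fold change over IgG was 0.69 ± 0.14 with V5 (1.61-fold, adjusted p = 0.00848) and 1.02 ± 0.14 with GFP (2.03-fold, adjusted p = 0.000916), and the V5 call ended without the arrays of conflicting descriptions (0.69).

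The probes of Ddx21 did not give the same answer. The other probes read -0.23 and -0.25 with V5 and 0.03 and -0.44 with GFP against IgG, and with the mean over probes neither comparison was called. Against input they gave -1.25 and -1.62 with V5 and -0.98 and -1.82 with GFP. The order of the groups given above therefore holds for the first probe only. Ddx10, a helicase of the small ribosomal subunit, was likewise higher with V5 (0.51 ± 0.15, adjusted p = 0.0256) and GFP (0.65 ± 0.15, 1.57-fold), while its other probe gave -0.07 with each. Ddx50, the nucleolar relative of Ddx21, was higher with V5 (0.30 ± 0.082), with -0.02 at its other probe. Leaving out either V5 array (0.47 and 0.55 for Ddx10, 0.33 and 0.27 for Ddx50) or IgG replicate 2 (0.30 and 0.22) ended both V5 calls.

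Ddx24 and Ddx52 of the same list went opposite ways against input. Ddx24, of the large ribosomal subunit, read 5978 and 5636 in input, 17843 and 17749 with IgG, 10788 and 12244 with V5 and 9997 and 10291 with GFP. IgG was highest and input lowest, with no overlap. Ddx24 was the highest member of IgG against input (1.62 ± 0.082, 3.07-fold, adjusted p = 1.32e-05), and stayed above input with V5 (0.99 ± 0.082) and GFP (0.81 ± 0.082). Against IgG it was lower with V5 (-0.63 ± 0.082, adjusted p = 0.00263) and GFP (-0.81 ± 0.082, 1.75-fold). The V5 call ended without the arrays of conflicting descriptions (-0.54), and with spike-in scaling and normexp.

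Ddx52, of the small ribosomal subunit, read 634 and 570 in input, 59.0 and 46.4 with IgG, 44.9 and 53.8 with V5 and 55.3 and 47.0 with GFP. All precipitates lay near one level, far below input. It was the lowest member against input, at -3.52 ± 0.16 with IgG (11.5-fold, adjusted p = 1.02e-05), -3.61 ± 0.16 with V5 and -3.56 ± 0.16 with GFP. Against IgG it gave -0.09 with V5 and -0.04 with GFP. Ddx10 was lower than input as well (-2.54 ± 0.15 with IgG, 5.83-fold), as was Ddx50 (-1.66 ± 0.082 with IgG, 3.17-fold).

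Among the lower members against IgG were Ddx49 and Ddx54, nucleolar helicases of ribosomal RNA processing. Ddx49 gave -0.46 ± 0.080 with V5 (adjusted p = 0.00552) and -0.77 ± 0.080 with GFP (adjusted p = 0.000395). Ddx54 gave -0.45 ± 0.070 and -0.71 ± 0.070. Their V5 calls ended without the arrays of conflicting descriptions, at -0.38 and -0.47, and with spike-in scaling, median scaling and normexp. Of the whole list 6 members were higher and 8 lower than input with IgG (35.3% and 47.1%, beside 43.9 and 29.3 over all genes). Among the higher ones was Dhx37 of the small subunit (0.91 ± 0.064, 1.88-fold, adjusted p = 3.37e-05), at 0.12 and not called with spike-in scaling.

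Of 9 spliceosomal members, 2 were higher and 5 lower than IgG with V5, and 3 higher and 5 lower with GFP (medians -0.32 and -0.51). These are 22.2% and 55.6%, and 33.3% and 55.6%, beside 16.7 and 40.3, and 21.6 and 52.1, over all genes. Dhx15, which takes spent spliceosomes apart, was the highest of them in both comparisons. It read 7178 and 6957 in input, 3175 and 2483 with IgG, 4700 and 4150 with V5 and 5316 and 5089 with GFP. Each precipitate lay below input, and both tagged precipitates lay above IgG. Over IgG the log2 fold change was 0.65 ± 0.13 with V5 (1.57-fold, adjusted p = 0.00756; 0.56 and not called without the arrays of conflicting descriptions) and 0.89 ± 0.13 with GFP (1.85-fold, adjusted p = 0.00107).

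A further probe of Dhx15 gave 0.61 and 0.87, close to the first. Ddx42, of the U2 particle, was higher as well (0.30 ± 0.066 with V5 and 0.51 ± 0.066 with GFP), though its other probe gave -0.35 and -0.10. The V5 call of Ddx42 ended without V5 replicate 1 (0.30) or V5 replicate 2 (0.29). Dhx35 was higher than IgG with GFP (0.31 ± 0.083, adjusted p = 0.0131), a call lost without GFP replicate 1, and gave 0.14 with V5. It was higher than input with IgG (0.45), V5 (0.59) and GFP (0.76), the first and second not called with spike-in scaling.

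Lower than IgG were Ddx23 and Dhx38, which act at the activation of the spliceosome and at the later catalytic step. Ddx23 read 151 and 125 in input, 201 and 168 with IgG, 87.8 and 123 with V5 and 83.0 and 95.0 with GFP. IgG lay above the other groups, and V5 overlapped GFP. The log2 fold change was -0.82 ± 0.19 with V5 (1.77-fold, adjusted p = 0.0123) and -1.05 ± 0.19 with GFP (2.07-fold, adjusted p = 0.00266). The V5 call ended without V5 replicate 1 (-0.58) or IgG replicate 1 (-0.69), and with spike-in scaling, median scaling and normexp.

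Dhx38 read 1917 and 1979 in input, 2855 and 3559 with IgG, 2103 and 2413 with V5 and 1702 and 1738 with GFP. The order from IgG to V5, input and GFP had no overlap. It was lower than IgG with V5 (-0.50 ± 0.12, adjusted p = 0.0142) and GFP (-0.89 ± 0.12, adjusted p = 0.000892). The V5 call ended without V5 replicate 1 (-0.40), and with spike-in scaling, median scaling and normexp. Dhx38 was higher than input with IgG (0.71 ± 0.12), as was Dhx16, which drives activation of the spliceosome (0.78 ± 0.11). Spike-in scaling turned both (-0.08 and -0.01). Ddx46, of the early spliceosome, was lower than input with IgG (-1.51 ± 0.091, 2.84-fold), V5 (-1.45 ± 0.091) and GFP (-1.70 ± 0.091).

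Where a gene name had more than 1 kept probe, as 25 members did, the probes differed in sign for 10 members in V5 against IgG, 6 in GFP against IgG and 4 in IgG against input. Called among them were Ddx10, Ddx21, Ddx42 and Ddx50 against IgG with both antibodies, Ddx27, a nucleolar helicase, with GFP, and Ddx42 and Dhx38 for IgG against input. The other probe of Dhx38, above background on 2 of 8 arrays, gave -0.11 there, and -0.29 and -1.11 for V5 and GFP against IgG. That of Ddx23, above background on 3 of 8 arrays, gave -0.70 and -0.79 against IgG, the same direction as the probe above. Both further probes were below background on most arrays, so their directions add little.

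**Figure D3:**
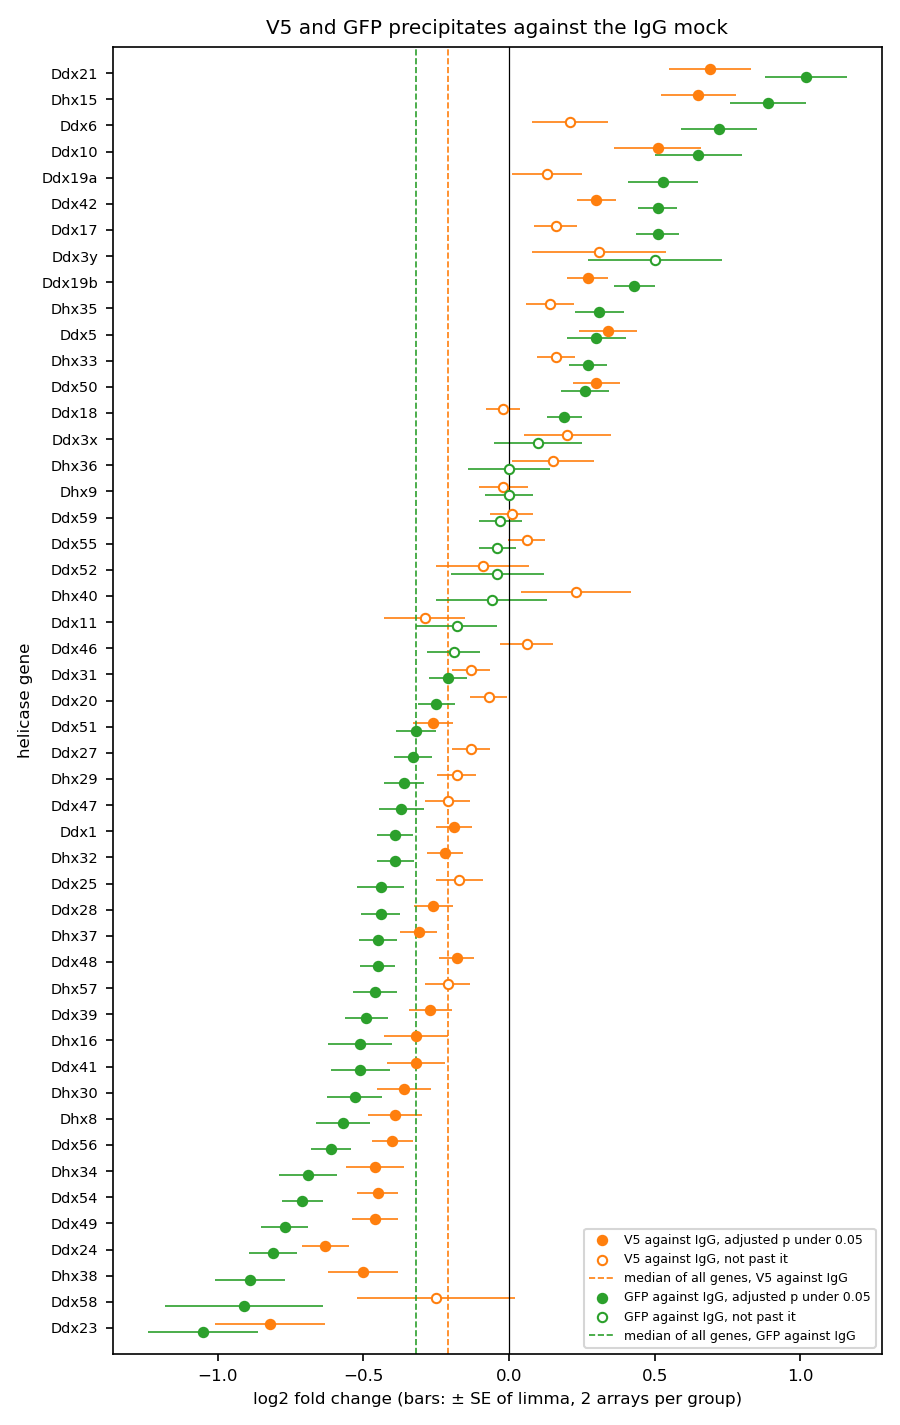
Log2 fold change ± SE (horizontal axis, limma, 2 arrays per group) of V5 (orange) and GFP (green) against IgG for 49 helicase genes; filled points passed an adjusted p of 0.05, and dashed lines mark the medians of all genes, -0.21 and -0.32. Ddx21 and Dhx15 are at the top for both antibodies and Ddx23 at the bottom; both comparisons share the IgG arrays, and the probe shown for Ddx58 was below background in all 3 precipitates.

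The 5 members of transcription, microRNA processing and assembly of small nuclear particles gave 1 higher and 1 lower with V5, and 2 each way with GFP, against IgG. Over all genes 16.7% were higher and 40.3% lower with V5, and 21.6% and 52.1% with GFP. Ddx17 and Ddx5 are partner helicases of the microRNA processor Drosha. Ddx17 read 44692 and 45439 in input, 48915 and 52605 with IgG, 58842 and 54435 with V5 and 71476 and 72951 with GFP. The groups stood in that order without overlap. Ddx17 was higher than IgG with GFP (0.51 ± 0.073, 1.42-fold, adjusted p = 0.00107), with 0.53 at its other probe, and gave 0.16 with V5. Against input the probes differed in sign, at 0.17 and -0.24 with IgG and 0.33 and -0.10 with V5, so the place of input in that order holds for the first probe.

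Ddx5 read 32630 and 30242 in input, 13131 and 10869 with IgG, 15004 and 15323 with V5 and 14698 and 14774 with GFP. At this probe both tagged precipitates lay above IgG and far below input. Over IgG it gave 0.34 ± 0.10 with V5 (adjusted p = 0.0269) and 0.30 with GFP, both called, and against input -1.39 ± 0.10 with IgG (2.63-fold). Its V5 call was lost when either V5 array (0.36 and 0.33) or IgG replicate 2 (0.21) was left out, and its GFP call without any V5 or GFP array (0.30 to 0.31) or IgG replicate 2 (0.17). Both were lost with the mean over probes (0.24 and 0.29). The other probe of Ddx5 gave 0.13 and 0.27 against IgG, and against input only -0.42 with IgG, -0.29 with V5 and -0.15 with GFP.

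Ddx1, of the complex that ligates tRNA, and Ddx20, the Gemin3 subunit of the SMN complex, lay below input in every precipitate. Ddx1 read 16952 and 17017 in input, 4360 and 4256 with IgG, 3734 and 3840 with V5 and 3358 and 3208 with GFP. Its log2 fold changes against input were -1.98 ± 0.062 with IgG (3.94-fold, adjusted p = 6.59e-06), -2.17 ± 0.062 with V5 and -2.37 ± 0.062 with GFP. A further probe of Ddx1 gave smaller differences in the same direction, -0.83, -1.26 and -1.25.

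Against IgG Ddx1 was lower with GFP (-0.39 ± 0.062; 0.08 with spike-in scaling) and with V5 (-0.19 ± 0.062, adjusted p = 0.0420; 0.18 with spike-in scaling), the latter lost without any of the 8 arrays (-0.17 to -0.21). Ddx20 gave -0.69 ± 0.064 with IgG, -0.76 ± 0.064 with V5 and -0.94 ± 0.064 with GFP against input, all called. Against IgG it was lower with GFP (-0.25 ± 0.064, not called without GFP replicate 1, at -0.24, or without the arrays of conflicting descriptions, at -0.25; 0.22 with spike-in scaling) and gave -0.07 ± 0.064 with V5. Dhx9, RNA helicase A, gave -0.02 and 0.00 against IgG and was lower than input with IgG (-0.81).

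The remaining members lie outside the lists above. At its brightest kept probe Ddx58 was above background in input only. This probe was at least 2.78-fold lower than input with IgG, at least 3.12-fold with V5 and at least 3.33-fold with GFP. On each array the bound used the lowest signal above background, or the probe's own signal where that was higher. The other kept probe, above background on 3 arrays, gave smaller differences, -0.45, -0.78 and -1.67, so the bounds hold for the first probe and not for the gene. Its GFP call against IgG, 1 of the 26 lower ones, sets values of that probe below background against each other and carries no fold. Ddx11, a DNA helicase of sister chromatid cohesion, was higher than input with IgG (0.65 ± 0.14; -0.14 with spike-in scaling) and with GFP (0.47 ± 0.14, adjusted p = 0.0214; not called without input replicate 2 or GFP replicate 2, at 0.34 and 0.31).

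The 6 members in no role list were Ddx59, Dhx30, Dhx32, Dhx34, Dhx40 and Dhx57. Dhx40 read 9126 and 8472 in input, 1782 and 1185 with IgG, 1572 and 1837 with V5 and 1363 and 1416 with GFP. The IgG arrays spanned those of GFP and overlapped V5, and every precipitate lay far below input, at -2.60 ± 0.19 with IgG (6.05-fold, adjusted p = 3.66e-05), -2.37 ± 0.19 with V5 and -2.66 ± 0.19 with GFP. Dhx34, a factor of nonsense-mediated decay, went the other way. It was not placed in the list of export, translation and decay, whose counts leave it out.

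It read 3785 and 3856 in input, 9166 and 10982 with IgG, 7557 and 7057 with V5 and 6096 and 6383 with GFP, with IgG highest and input lowest. Against input it was higher with IgG (1.39 ± 0.099, 2.63-fold, adjusted p = 3.40e-05) and V5 (0.93 ± 0.099), and against IgG lower with V5 (-0.46 ± 0.099, adjusted p = 0.0102; not called without V5 replicate 2, at -0.41, or the arrays of conflicting descriptions, at -0.51). The V5 call against IgG also ended with spike-in scaling, median scaling and normexp. The other probes of Dhx34 gave 1.44 and 1.39 for IgG against input, and the 3 probes thus agreed within 0.05.

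DEAD and DEAH members, classed by name and not by motif sequence, differed most in their counts against input. With IgG 21 of 34 DEAD members were lower and 9 higher (median -0.55), and 5 of 15 DEAH members lower and 6 higher (median 0.05), beside a median of 0.22 over all genes. The DEAD shares are 26.5% higher and 61.8% lower and the DEAH shares 40.0% and 33.3%, of which the latter lie near the 43.9 and 29.3 of all genes. With V5 21 DEAD members were lower and 4 higher (median -0.59), and 6 DEAH members lower and 5 higher (median 0.01). With GFP the counts were 24 lower and 7 higher (median -0.66), and 7 lower and 4 higher (median -0.18). With V5 11.8% of DEAD members were higher and 61.8% lower, and 33.3% and 40.0% of DEAH members, beside 37.7 and 35.5 over all genes. For GFP these are 20.6% and 70.6%, and 26.7% and 46.7%, beside 36.2 and 39.1. Both classes reached far down, DEAD members to -3.52 and DEAH members to -2.60 with IgG.

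Against IgG the medians of the classes stood in the other order. With V5 6 DEAD members were higher and 11 lower (median -0.11), and 1 DEAH member higher and 7 lower (median -0.21), beside -0.21 for all genes. For V5 these are 17.6% and 32.4% of DEAD members, and 6.67% and 46.7% of DEAH members, beside 16.7 and 40.3 over all genes. With GFP 10 of 34 DEAD members were higher and 17 lower (median -0.20), and 3 of 15 DEAH members higher and 9 lower (median -0.39), beside a median of -0.32 for all genes. Over all genes 21.6% were higher and 52.1% lower with GFP. These are descriptions of the classes, and the difference between them was not tested.

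**Figure D4:**
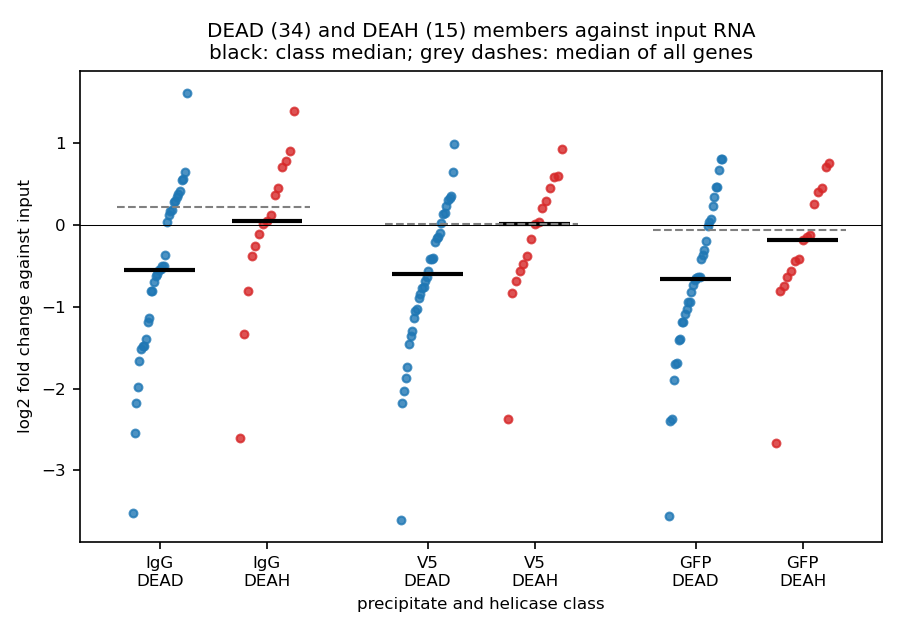
Log2 fold change against input (vertical axis) of 34 DEAD (blue) and 15 DEAH (red) members in the IgG, V5 and GFP precipitates; each point is a gene, black bars are class medians and grey dashes the median of all genes. The DEAD medians of -0.55, -0.59 and -0.66 lie below the DEAH medians of 0.05, 0.01 and -0.18, and the 3 comparisons share the input arrays.

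V5 against GFP, within 1 slide, separated few members. Higher with V5 were Ddx49 (0.31 ± 0.080, adjusted p = 0.0497) and Ddx48 (0.26 ± 0.060, adjusted p = 0.0415), and lower was Ddx17 (-0.35 ± 0.073, adjusted p = 0.0353). That is 4.08% higher and 2.04% lower, beside 6.76 and 7.17 (13.9 either way) over all genes. Each of these calls ended when any array of V5, GFP or input was left out, at values of 0.23 to 0.40 for Ddx49, 0.24 to 0.28 for Ddx48 and -0.30 to -0.41 for Ddx17. With either IgG array left out 13 members were called. Spike-in scaling gave 0 higher and 5 lower, and scaling to the median spot 0 and 1. Ddx25 gave 0.27 ± 0.080 (adjusted p = 0.0677) and Dhx38 0.39 ± 0.12 (adjusted p = 0.0712), neither past the threshold.

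Of 27 other names of RNA helicases outside the rule, some of them older and newer names of 1 gene, 19 were measured. Against IgG 2 were higher and 10 lower with V5, and 2 higher and 11 lower with GFP, and against input with IgG 5 were higher and 10 lower. The shares are 10.5% and 52.6%, 10.5% and 57.9%, and 26.3% and 52.6%, beside 16.7 and 40.3, 21.6 and 52.1, and 43.9 and 29.3 over all genes. The higher ones with both antibodies were D1Pas1, given above, and Eif4a2, a helicase of the cap-binding complex (0.65 ± 0.11 with V5, 0.96 ± 0.11 with GFP). Its close relative Eif4a1 was lower with V5 (-0.21 ± 0.069, adjusted p = 0.0372) and GFP (-0.19 ± 0.069, adjusted p = 0.0463), which spike-in scaling turned (0.15 and 0.29). Ifih1, the RNA sensor MDA5, was lower than input with IgG (-2.95 ± 0.15, adjusted p = 1.37e-05), and Mov10, an RNA helicase of silencing, was higher (1.14 ± 0.077).

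At the 75th percentile scaling, most listed germ cell markers lay above IgG, while those of spermatids and most of other cell types lay below it. Spike-in scaling would move every value up by the shift of all genes given above. Of 7 measured germ cell markers 5 were higher and 1 lower than IgG with each antibody, at medians of 0.98 with V5 and 1.49 with GFP. Higher were Dazl itself (0.98 ± 0.15 and 1.49 ± 0.15), Dmrt1 (1.63 ± 0.081 and 2.41 ± 0.081) and Kit (1.21 ± 0.079 and 1.79 ± 0.079). So were Sycp3 (1.45 ± 0.20 and 1.66 ± 0.20) and Stra8 (0.81 ± 0.077 and 1.17 ± 0.077). Tex101 was lower (-0.39 ± 0.097 and -0.57 ± 0.097), and Sycp1 did not pass (-0.10 ± 0.19 and -0.32 ± 0.19). Of 4 measured spermatid markers 3 were lower with V5 and 4 with GFP, and 0 higher. Of the other cell types' measured markers 0 were higher, while with V5 9 of 10 Sertoli, 5 of 5 Leydig, 5 of 5 myoid, 6 of 7 leukocyte and 4 of 5 endothelial markers were lower. Sertoli markers summed to 241234 and 247012 in input, 225624 and 227167 with IgG, 167071 and 176351 with V5 and 147007 and 154857 with GFP. Myoid markers summed to 74453 and 76781, 32161 and 37372, 22458 and 24903, and 18738 and 19660. Leukocyte markers summed to 28054 and 28164, 17906 and 21023, 14527 and 15809, and 11684 and 12459. Endothelial markers summed to 1287 and 1367, 1653 and 1793, 1211 and 1278, and 1130 and 1137. The summed signal of the 7 germ cell markers was 258067 and 260802, 228266 and 263921, 225419 and 239461, and 234388 and 244453. Which cells made each listed marker was not measured here, and a marker may be made by more than 1 cell type. The part of all these markers in the members' values was not tested.

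The authors' deposited table gives means for input, V5 and GFP, and 29 members could be matched to it. The ratio in the authors' deposited table had the sign of the limma value for 25 of 29 members for V5 against input, 27 for GFP against input and 27 for V5 against GFP. Among called members the authors' deposited table had that sign for 20 of 20, 25 of 26 and 3 of 3. The exception was Ddx39 for GFP against input, at 0.18 in the authors' deposited table and -0.19 ± 0.073 here. The authors' means come from the same arrays, so shared signs are not separate evidence. Their ratios differed from the limma values by a median of 0.28 for V5 and 0.33 for GFP against input, and -0.04 for V5 against GFP.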

How the data were processed

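RNA of 4 groups of 2 samples was measured on one-colour arrays. Per the file headers, the deposited spot intensities come from Feature Extraction 9.1.3.1. That program had subtracted background, corrected trends across the slide and replaced signals not above background by surrogates, and arrays were not scaled to each other. The deposited signal table, per its comment lines, gives the authors' GeneSifter values for input, V5 and GFP, each a median-normalized mean. Its other 6 value columns stayed out.

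Here log2 of the processed signal was taken, the 75th percentile of non-control spots subtracted, outlier spots left out and spots of a probe averaged. A probe was kept if well above background on 2 of 2 arrays in some group, and each gene name was read from its brightest such probe. Of the members 43 matched RefSeq (assembly GRCm38.p6) by accession and 6 by symbol. Group means over 8 arrays were fitted with limma 3.58.1 in R 4.3.3 (4 residual and 2.41 prior degrees of freedom), tested two-sided with Benjamini-Hochberg adjustment over 17593 genes at 0.05; every adjusted p comes from this fit, which was tested on simulated data. The small number of arrays limits the precision.

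The members, role lists and tests were chosen with earlier results of these data known. Named members are Ddx25, Ddx6, Ddx3x, Ddx3y and Ddx20 in every comparison, up to 5 highest and 5 lowest called members against IgG and for IgG against input, up to 3 each way elsewhere, and up to 2 of each role list by p. Ddx19a and Ddx19b, Dhx9, Dhx29, Dhx36 and values beyond these were named after they were seen. Further names fixed for the germline list, Ddx43 and Ddx53, were not among the gene names measured. Alternatives were other scalings, background corrections, filters, probe averaging, fits and left-out arrays. No protein or probe sequences were used here.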

Additional observations from a re-analysis of the deposited data

How the results depend on the processing

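The V5 and GFP precipitates lay on another slide than the IgG mock, and groups held 2 arrays. Spike-in scaling turned the sign of 22 of 49 members for V5 and 21 for GFP against IgG. Of 2214 values of named members under alternatives, 1925 kept their direction and side of the threshold, 199 lost the call, 48 gained one and 42 turned; where no cause follows from the setting's construction, the cause was not tested. Of 25 calls of V5 against IgG 0, and of 39 of GFP against IgG 3, held under every alternative, beside 20 of 41 for IgG, 20 of 36 for V5 and 21 of 42 for GFP against input.

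For V5 against IgG (25 members called) the count was 15 with median scaling, 0 with normexp background correction (8 at an unadjusted p under 0.05), 15 with no filter on dim probes, 0 without the arrays of conflicting descriptions (14), 10 with only the 2 groups fitted, and 7 to 27 with 1 array left out. Normexp gave 4 for GFP against IgG, and 22 each for IgG, V5 and GFP against input. For V5 against GFP (3 called) the count was 5 with spike-in scaling, 1 with median scaling, 6 with quantile normalization, 0 with normexp (1 at an unadjusted p under 0.05), 7 with local background subtracted (chosen after seeing the data), 0 with no filter on dim probes (19), 9 with probes above background on all arrays, 15 with a trended robust prior, 0 without the arrays of conflicting descriptions (6), 0 with only the 2 groups fitted (24), and 0 to 13 with 1 array left out (13 without either IgG array). Numbers in the titles do not say that samples were paired, and the deviations of same-numbered arrays correlated at -0.08 to 0.11; with a replicate block V5 against GFP gave 0 calls (20 at an unadjusted p under 0.05).

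Log2 fold changes that turned were these. With spike-in scaling V5 against IgG gave 0.20 for Ddx25, 0.30 for Ddx20, 0.10 for Ddx39, 0.18 for Ddx1, 0.11 for Ddx58 and 0.08 for Ddx11. GFP against IgG gave 0.04 for Ddx25, 0.22 for Ddx20, 0.03 for Ddx48, 0.08 for Ddx1 and 0.29 for Ddx11. IgG against input gave -0.01 for Dhx16, -0.08 for Dhx38 and -0.14 for Ddx11, V5 against GFP -0.01 for Ddx3x, and V5 against input -0.06 for Ddx11. With median scaling V5 against IgG gave 0.09 for Ddx25, 0.19 for Ddx20, 0.08 for Ddx1 and 0.01 for Ddx58, GFP against IgG 0.04 for Ddx20 and 0.11 for Ddx11, and V5 against input 0.15 for Ddx6. Quantile normalization gave 0.15 for Ddx58 (V5 against IgG) and 0.10 for Ddx11 (GFP against IgG). Normexp gave 0.03, 0.23, 0.26 and 0.06 for Ddx58 (V5 against IgG; IgG, V5 and GFP against input), 0.10 for Ddx11 (V5 against GFP) and 0.01 for Ddx6 (V5 against input). The mean over probes gave -0.03 for Ddx42 (V5 against IgG) and -0.19 for Ddx3x (V5 against GFP), and local background -0.01 for Ddx3y (V5 against IgG). Without the arrays of conflicting descriptions Ddx58 gave 0.20 (V5 against IgG). With 1 array left out, V5 against IgG ran from -0.02 to 0.42 for Ddx3x, -0.03 to 0.66 for Ddx3y (both lowest without IgG replicate 2) and -0.71 to 0.20 for Ddx58 (highest without V5 replicate 1). GFP against IgG ran from -0.12 to 0.32 for Ddx3x (lowest without IgG replicate 2), V5 against GFP from -0.26 to 0.05 for Ddx11 (0.00 without V5 replicate 2, highest without GFP replicate 2), and V5 against input from -0.33 to 0.02 for Ddx6 (highest without V5 replicate 1). A split of members by the sequence of their motif was not run, since no protein sequences were used here.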
